A study of Cucumis sativus with 11 samples.

Results

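The effect of salt on gene expression was measured in leaves of silicon-fed cucumber plants, by comparing leaves that received salt plus silicon with leaves that received silicon alone. The comparison took in 5 of the 11 libraries of the study, 3 from salt plus silicon leaves and 2 from silicon leaves, chosen by their labelled treatment. The series also holds 3 salt and 3 control libraries, used here to show what salt did without silicon. All plants were cucumber (Cucumis sativus) of the cultivar JinYou 1, grown in nutrient solution in plastic containers. Salt plus silicon plants received 75 mM sodium chloride and 0.3 mM silicon, silicon plants 0.3 mM silicon alone, salt plants 75 mM sodium chloride alone, and control plants neither. Silicon was given as sodium silicate, so it brought some sodium to both silicon-fed groups. Whether this sodium was matched in the groups without silicon is not given in the labels. Salt and silicon were added together, and young leaves that had just reached full size were taken 3 days later, with 3 leaves combined into each biological replicate. Whether the plants of a treatment shared a container is not given in the labels, so the p-values may in part measure a spread between leaves of plants kept together.

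Salt reaches a leaf through the transpiration stream. It limits water uptake at first and later harms cells as sodium and chloride build up in the leaf. Plants take up silicon as silicic acid and deposit it as silica, mostly in cell walls, and silicon feeding is known to ease salt damage in cucumber. Salt stress is known to raise genes of abscisic acid signalling, ion transport, osmoprotectant synthesis and antioxidant defence in leaves. The deposited tables list IDs alone. None of the 20165 could be paired with an entry of the RefSeq table for cucumber, which holds 23999 genes (0 matches). Genes are therefore described by ID, level and pattern. No role could be given to them, and the identity of the tissue could not be checked against leaf marker genes.

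Levels were deposited in RPKM, which scales reads by gene length and for the mapped reads of each library. Of the 20165 listed genes, 16771 had 1 RPKM or more in at least 2 of the 5 silicon-fed libraries and were tested. Of these, 356 passed through the silicon libraries alone, being under 1 RPKM in all salt plus silicon libraries, and 304 passed through the salt plus silicon libraries alone. Between 1711 and 2284 listed genes were at 0 in a silicon-fed library. Relative to silicon library 1, the depth estimated from the size of the lowest values was 1.08, 1.14 and 1.30 in the salt plus silicon libraries and 1.20 in silicon library 2. Only ratios near 1 were considered, so a large difference in depth would not have shown, and absolute depth is unknown. Across tested genes, the SD of the log2 difference between 2 libraries was 0.659 to 0.714 within salt plus silicon and 0.761 between the silicon libraries. It was 0.640 to 0.877 within salt and 0.788 to 0.902 within control.

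With salt, 1770 of the 16771 tested genes differed in silicon-fed leaves (10.6%), 472 higher (2.81%) and 1298 lower (7.74%). A called gene is one with an adjusted p under 0.05 in limma, fitted to log2(RPKM + 1) in all 11 libraries with Benjamini-Hochberg adjustment over the tested genes. In whole leaves, fewer cells of a type and less RNA per cell cannot be told apart. Falls were larger than rises. The 472 risers had a median log2 change of 1.16 and the 1298 fallers one of -1.99, where all tested genes had -0.00. Since the change chose the genes, these medians are a description. Calls of 2-fold or more were 293 higher (1.75% of tested genes) and 1171 lower (6.98%). A change of 4-fold or more on the log2(RPKM + 1) scale was seen in 92 of the higher genes (19.5%) and 647 of the lower genes (49.8%), and of 16-fold or more in 15 and 182. Of the 356 tested genes that passed the level filter through silicon libraries alone, 239 were called lower, and of the 304 that passed through salt plus silicon libraries alone, 31 were called higher. The filter favours these directions, so both counts are a description.

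The balance of rises and falls depended on the scaling of the libraries. After quantile normalization 1010 genes were called higher and 1213 lower, and the median change of all tested genes moved to 0.15. After median-of-ratios scaling 477 were higher and 1327 lower. Leaving out a silicon library leaves 1 library in that group, and the group sizes alone favour a larger loss of calls. The count of calls fell most in those fits. It was 532 without silicon library 1, 861 without silicon library 2, 1087 without salt plus silicon library 1 and 995 without salt plus silicon library 3. Of the 532 genes called without silicon library 1, 78 higher and 438 lower ones were also called with all libraries. Called with all libraries and also without each of the 5 silicon-fed libraries in turn were 55 higher and 352 lower genes. Single genes were not tested by exact permutation, since 3 against 2 libraries allow 10 splits and no two-sided p below 0.2.

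**Figure D1:**
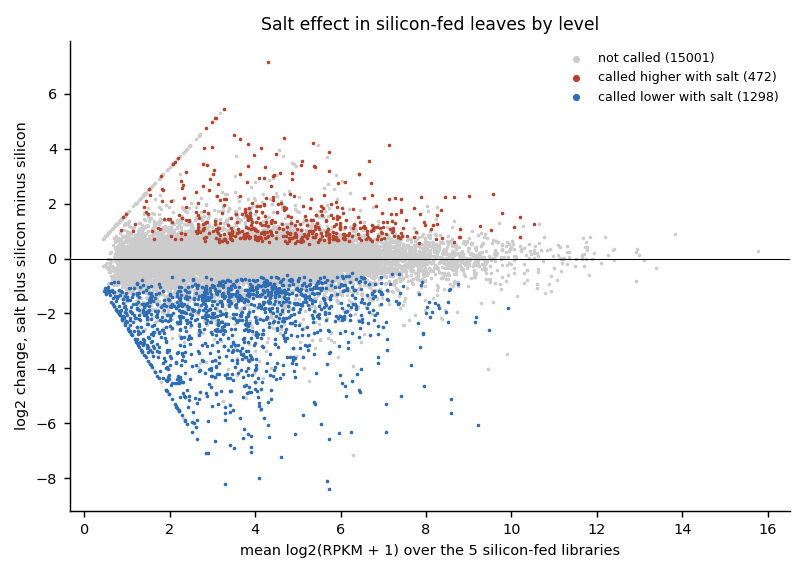
Each point is 1 of the 16771 tested genes, with its mean log2(RPKM + 1) over the 5 silicon-fed libraries on the x axis and its log2 change, salt plus silicon minus silicon, on the y axis. The 1298 genes called lower reach -8.40 and the 472 called higher reach 7.15, and the straight edges at low levels are genes listed at or near 0 in one of the groups.

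**Figure D2:**
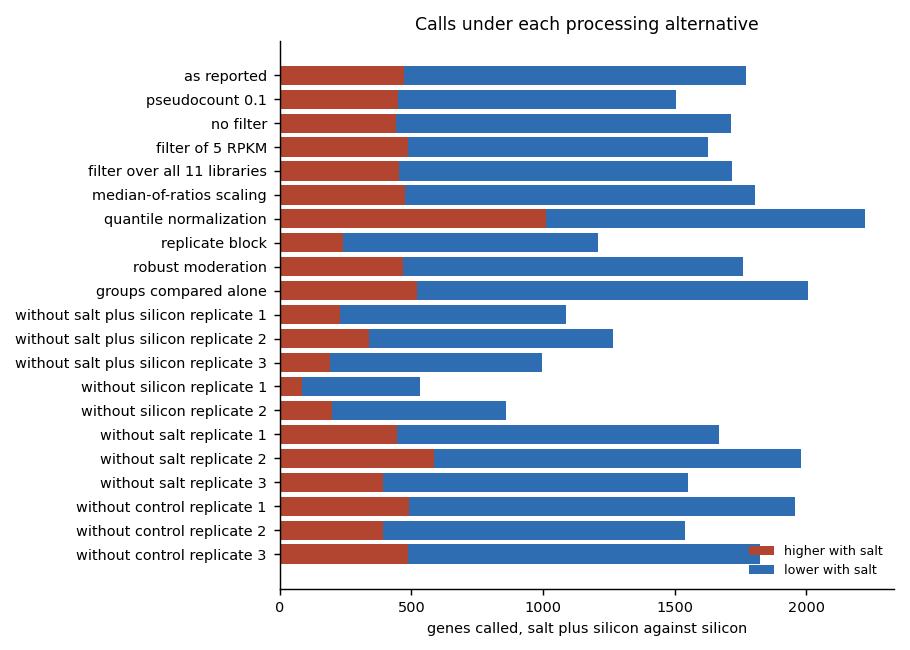
Bars give the number of genes called higher and lower in salt plus silicon against silicon leaves, as reported (472 and 1298) and under each other setting. The shortest bar, without silicon replicate 1, holds 84 higher and 448 lower genes, and the longest, after quantile normalization, 1010 and 1213.

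Rises were seen at high levels more than at low ones, while falls were spread over all levels. Among tested genes with a mean of 100 RPKM or more over the 5 libraries, 5.48% were called higher and 7.78% lower. Between 20 and 100 RPKM the shares were 3.86% higher and 9.23% lower, and between 5 and 20 RPKM they were 2.59% and 7.33%. Under 5 RPKM they were 0.785% and 6.45%. The mean was taken over the same libraries as the calls, so the shares are a description.

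Among genes that rose, 2 IDs were chosen for the largest change that was called without each silicon-fed library in turn. Csa1G181330 measured 44.4, 37.4 and 86.3 RPKM in salt plus silicon leaves, against 2.15 and 2.48 RPKM in silicon leaves. All salt plus silicon values lay far above both silicon values, and the log2 change was 4.01 ± 0.62 (SE, limma adjusted p = 0.00395). Without silicon feeding it stood at 15.8, 96.0 and 34.2 RPKM in salt leaves, against 2.35, 2.57 and 1.45 RPKM in control leaves. The groups did not overlap there either, with a log2 change of 3.65 ± 0.55 (SE, limma adjusted p = 0.00731), a call lost when the salt and control libraries were fitted alone. Csa3G818250 stood at 135, 129 and 214 RPKM in salt plus silicon leaves, against 7.79 and 11.8 RPKM in silicon leaves. The change was 3.88 ± 0.39 (SE, limma adjusted p = 0.000632). In salt leaves it was at 102, 196 and 128 RPKM, against 3.53, 8.21 and 7.96 RPKM in control leaves. Every salt-treated library was thus above every library without salt, for both genes. The most abundant of the genes called higher, Csa7G267900, was at 1987, 1965 and 2388 RPKM in salt plus silicon leaves, against 876 and 882 RPKM in silicon leaves. The change was 1.26 ± 0.20 (SE, limma adjusted p = 0.00497). Salt leaves had 2106, 1861 and 2589 RPKM and control leaves 1086, 1404 and 1241 RPKM. The salt and control libraries did not overlap, at a log2 change of 0.81 ± 0.18 (SE, limma adjusted p = 0.0267). That call without silicon was lost after median-of-ratios scaling, when the salt and control libraries were fitted alone, and without any one of salt libraries 1 and 3 and control libraries 1, 2 and 3.

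Among genes that fell, the 2 IDs chosen in the same way were near 0 with salt and highest in silicon leaves. Csa7G072780 stood at 0.725, 0.661 and 1.20 RPKM in salt plus silicon leaves, against 980 and 226 RPKM in silicon leaves. The silicon libraries differed widely from each other but both lay far above the salt plus silicon libraries, with a log2 change of -8.00 ± 1.06 (SE, limma adjusted p = 0.00211). Only salt plus silicon library 3 reached 1 RPKM, so this gene passed the level filter only with the silicon libraries, where it is high. Its change is therefore a description. It was also called with no filter, where its values were the same, so that call adds no support. Salt leaves had 1.68, 0 and 2.59 RPKM and control leaves 33.4, 8.62 and 0.928 RPKM. The salt and control libraries overlapped, and that difference did not pass the test (limma adjusted p = 0.189). Csa3G829270 stood at 0.616, 0.922 and 0.478 RPKM in salt plus silicon leaves, against 261 and 152 RPKM in silicon leaves. The change was -6.91 ± 0.75 (SE, limma adjusted p = 0.000932). This gene passed the level filter through the silicon libraries alone, where it is high. It therefore had to stand lower with salt, which makes the change a description. It was also called with no filter, where its values were the same, so that call adds no support. It was at 1.14, 0 and 0.422 RPKM in salt leaves, against 13.6, 3.31 and 0.54 RPKM in control leaves, where the test was not passed (limma adjusted p = 0.134). For both genes control library 1 was the highest library outside the silicon group. The most abundant of the genes called lower, Csa5G285030, was at 63.9, 125 and 167 RPKM in salt plus silicon leaves, against 8613 and 6331 RPKM in silicon leaves. The change was -6.05 ± 1.22 (SE, limma adjusted p = 0.0125), and the call was lost without either silicon library. Salt leaves had 43.01, 8.01 and 79.6 RPKM and control leaves 1164, 220.1 and 45.9 RPKM, which overlapped (limma adjusted p = 0.118).

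**Figure D3:**
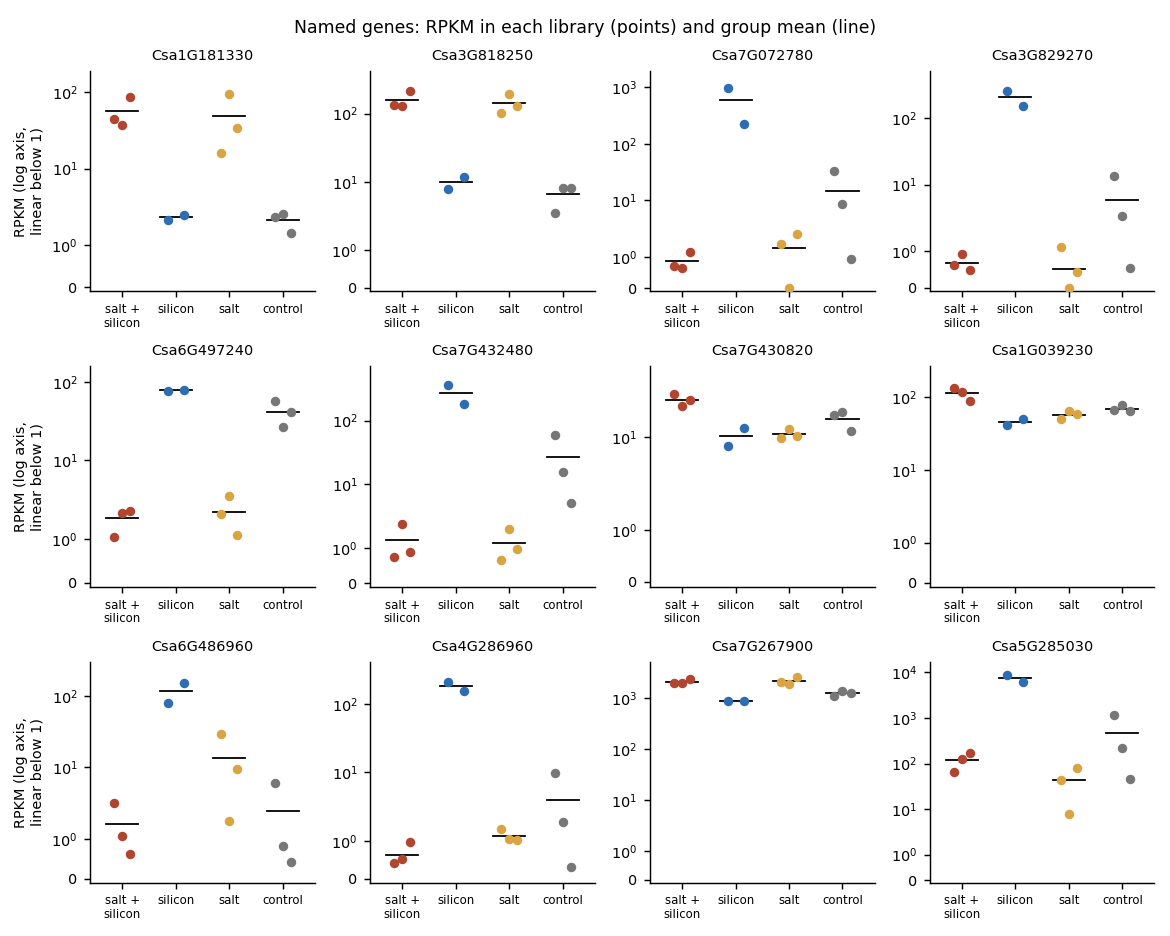
Each panel gives the RPKM of 1 named gene in every library (points, y axis logarithmic above 1 and linear below), with the group mean as a line. Csa1G181330, Csa3G818250 and Csa7G267900 are high in both groups with salt. The falling genes are highest in the 2 silicon libraries, and Csa6G497240 has its control libraries next, between 27.0 and 56.5 RPKM.

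Genes that rose with salt in silicon-fed leaves were mostly higher with salt in unfed leaves too. Salt against control shares no library with the comparison in silicon-fed leaves, although both used one estimate of the spread. Over the same tested genes, 1651 differed with salt alone (9.84%), 1105 higher (6.59%) and 546 lower (3.26%). With the 6 unfed libraries fitted alone, 113 were higher and 98 lower. Of the 472 genes that rose in silicon-fed leaves, 229 (48.5%) were also called higher with salt alone and 0 were called lower. These 229 were 20.7% of the genes that rose with salt alone. The log2 change with salt alone was above 0 in 437 of the 472 genes (92.6%), against 58.4% of all tested genes, and its median was 0.79, against 0.12. With median-of-ratios scaling, which moves that 0.12 to -0.01, it was above 0 in 415 of the 472, against 48.9% of all tested genes. The median of the 472 was then 0.65. In 335 of the 472 (71.0%) all salt libraries lay above all control libraries, as they did in 20.5% of tested genes. The 472 genes had a library median of 37.3, 33.04 and 45.8 RPKM in salt plus silicon, 13.0 ± 0.0790 RPKM in silicon (SD, n = 2), 33.6 ± 3.68 RPKM in salt (SD, n = 3) and 15.7 ± 0.310 RPKM in control libraries (SD, n = 3). The salt and control libraries, which entered the choice of the genes only through the estimate of the spread, did not overlap in this median. They took 4.85% ± 0.641 of the summed RPKM in salt plus silicon, 1.74% ± 0.0399 in silicon, 4.42% ± 0.367 in salt and 2.21% ± 0.149 in control libraries (SD).

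Of the 1298 genes that fell with salt in silicon-fed leaves, 134 (10.3%) were called lower with salt alone, against 3.26% of tested genes, and 24 (1.85%) were called higher, against 6.59%. The 134 were 24.5% of the genes that fell with salt alone. The log2 change with salt alone was below 0 in 877 of the 1298 (67.6%), against 41.3% of tested genes, and its median was -0.28. With median-of-ratios scaling it was below 0 in 979, against 50.7% of all tested genes, and the median was -0.37. Levels in the 4 groups show where the difference lay. The median over the 1298 genes was 4.81, 4.66 and 4.08 RPKM in salt plus silicon libraries and 31.8 and 29.6 RPKM in silicon libraries. It was 6.28, 4.27 and 4.34 RPKM in salt libraries and 12.05, 6.80 and 4.92 RPKM in control libraries. Both silicon libraries lay above all 9 others in 1163 of these genes (89.6%), as they did in 13.7% of tested genes. In the 472 genes that rose, both silicon libraries lay below all 9 others in 173 (36.7%), as they did in 3.41% of tested genes. The choice of the genes raises both shares in part. The 1298 genes took 2.12% ± 0.167 of the summed RPKM in salt plus silicon, 11.6% ± 2.04 in silicon, 2.25% ± 0.334 in salt and 3.03% ± 0.885 in control libraries (SD).

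The control libraries were not alike in these falling genes. Control library 1 was above control library 2 in 1138 of the 1298 (87.7%) and above control library 3 in 1177 (90.7%), against 72.0% and 60.04% of all tested genes. Its median of 12.05 RPKM lay between the other control libraries and the silicon libraries. The median log2 difference of control library 1 to control library 3 was 0.79 in the 1298 genes and 0.13 in all tested genes. In the 472 genes that rose it was 0.09. Without control library 1, salt alone gave 1305 higher and 426 lower genes, against 1105 and 546 with it, and 87 in place of 134 genes were called lower in both salt comparisons.

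**Figure D4:**
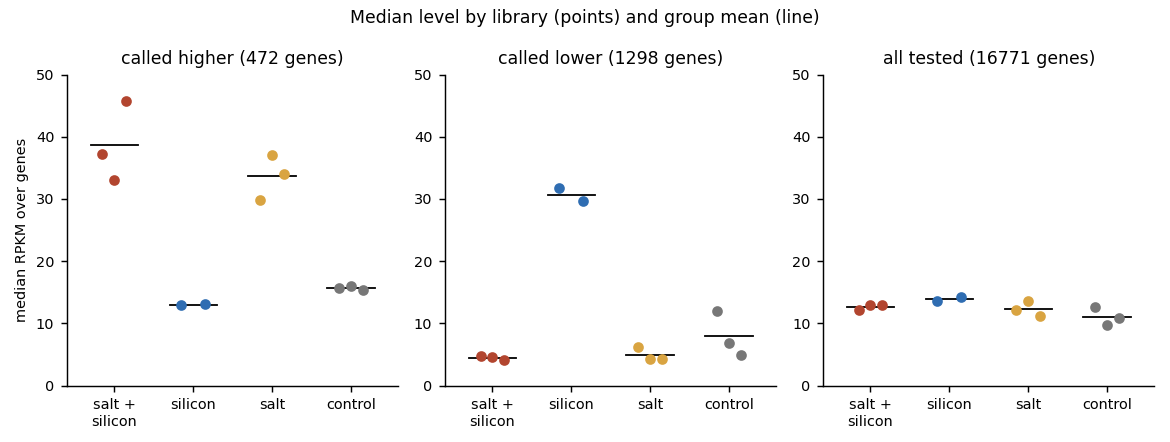
Points give the median RPKM over the genes called higher, the genes called lower and all tested genes in each library, and lines the group means. In the genes called higher, both groups with salt lie above both without it. In the genes called lower, the silicon libraries stand at 31.8 and 29.6 RPKM, above every other library, and control library 1 comes next at 12.05 RPKM.

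**Figure D5:**
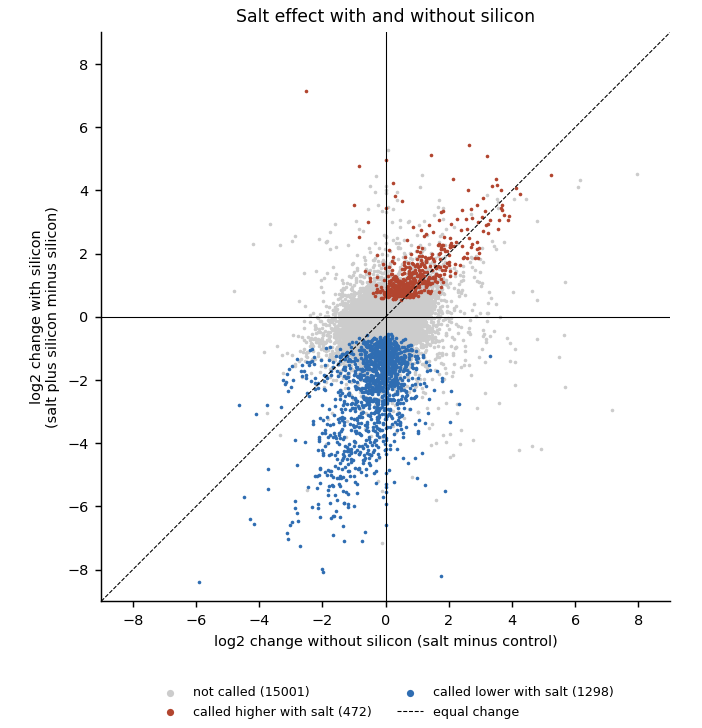
Each point is a tested gene, with the log2 change without silicon (salt minus control) on the x axis and with silicon (salt plus silicon minus silicon) on the y axis. The 472 genes called higher in silicon-fed leaves lie mostly to the right of 0, and 362 of them lie above the line of equal change. Of the 1298 called lower, 1234 lie below that line, and the median of the 1298 on the x axis is -0.28. Among all tested genes 40.4% lie above the line and 59.6% below it. The y axis chose both sets of called genes.

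Genes called in the same direction by both salt comparisons were 229 higher and 134 lower. The 229 genes had a median of 39.1, 36.4 and 55.7 RPKM in salt plus silicon libraries and 13.2 and 12.5 RPKM in silicon libraries. They had 33.3, 39.3 and 36.2 RPKM in salt libraries and 12.01, 11.9 and 10.2 RPKM in control libraries. The median log2 change was 1.34 with silicon and 1.35 without it. In the 134 genes that fell in both, the median was 7.21, 7.21 and 5.30 RPKM in salt plus silicon libraries and 33.5 and 37.7 RPKM in silicon libraries. It was 6.44, 5.43 and 4.07 RPKM in salt libraries and 28.9, 28.8 and 21.6 RPKM in control libraries. The median change was -1.73 with silicon and -1.73 without it, and both comparisons chose these genes. The 2 IDs with the largest rise in both were Csa3G818250 and Csa1G181330, described above. Of those that fell, Csa6G497240 stood at 1.05, 2.16 and 2.29 RPKM in salt plus silicon leaves, against 76.5 and 79.01 RPKM in silicon leaves. The change was -4.83 ± 0.38 (SE, limma adjusted p = 0.000167). In salt leaves it was at 2.05, 3.48 and 1.11 RPKM, against 56.5, 27.0 and 41.5 RPKM in control leaves, a change of -3.74 ± 0.34 (SE, limma adjusted p = 0.0015). All 6 libraries with salt lay far below all 5 without it. Csa7G432480 stood at 0.738, 2.38 and 0.885 RPKM in salt plus silicon leaves, against 359 and 182 RPKM in silicon leaves. The change was -6.85 ± 0.79 (SE, limma adjusted p = 0.00114). Only salt plus silicon library 2 reached 1 RPKM, so this gene passed the level filter only with the silicon libraries, where it is high. Its change in silicon-fed leaves is therefore a description. It was also called with no filter, where its values were the same, so that call adds no support. Salt leaves had 0.673, 2.02 and 0.967 RPKM, against 60.5, 15.8 and 5.18 RPKM in control leaves, a change of -3.11 ± 0.70 (SE, limma adjusted p = 0.0265). That second call was lost when the 6 libraries were fitted alone and without salt library 1, salt library 3 or control library 2.

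The count of 363 genes shared in direction was 105 without silicon library 1, 134 without silicon library 2, and 194, 241 and 191 without salt plus silicon libraries 1, 2 and 3. It was 190 without salt library 3 and 174 without control library 2, and 79 with the groups of each comparison fitted alone. The 24 genes called lower with salt in silicon-fed leaves and higher with salt alone had a median of 7.17, 8.55 and 6.78 RPKM in salt plus silicon, against 24.1 and 21.9 RPKM in silicon libraries. They had 14.2, 10.3 and 13.2 RPKM in salt, against 6.22, 2.95 and 2.27 RPKM in control libraries. Their number was 73 without control library 1, 1 without control library 2 and 6 without control library 3. It was 3 without salt library 1 and 2 without salt library 3, and 3 and 15 without silicon libraries 1 and 2. It was 5, 7 and 10 without salt plus silicon libraries 1, 2 and 3. With a replicate block it was 7, and with the compared groups fitted alone 1. The calls for salt alone numbered 463 without control library 2, 610 without salt library 3, 669 without salt library 1, 1077 without control library 3 and 1097 without salt plus silicon library 1. Their split of 1105 higher and 546 lower became 763 and 866 with median-of-ratios scaling, and 810 and 651 with quantile normalization.

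Genes called in silicon-fed leaves alone differed in where the unfed groups stood. The 243 genes that rose with salt in silicon-fed leaves and were not called with salt alone had a median of 35.8, 30.3 and 38.8 RPKM in salt plus silicon libraries and 11.8 and 14.5 RPKM in silicon libraries. They had 27.5, 34.8 and 28.7 RPKM in salt libraries and 21.7, 21.1 and 22.4 RPKM in control libraries. All salt libraries were above all control libraries in this median, at a median log2 change of 0.40 with salt alone. The 1140 genes that fell and were not called with salt alone had a median of 4.53, 4.24 and 3.85 RPKM in salt plus silicon libraries and 31.6 and 29.4 RPKM in silicon libraries. They had 6.14, 4.05 and 4.25 RPKM in salt libraries and 10.6, 5.78 and 4.12 RPKM in control libraries. Here the salt and control libraries overlapped, and the median log2 change with salt alone was -0.20. A gene not called with salt alone is not shown to be unchanged by it.

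The test of whether salt acted differently with and without silicon is the difference of the 2 salt effects, the interaction term of the fit. It passed in 386 genes (2.3%), 38 higher (0.227%) and 348 lower (2.08%), where lower means a salt effect further down in silicon-fed leaves. Its median over all tested genes was -0.16, and -0.01 after median-of-ratios scaling. After quantile normalization 73 were higher and 244 lower, at a median of 0.09. The term uses the libraries of both salt comparisons. Its count was 57 without silicon library 1, and 63, 143 and 108 without salt plus silicon libraries 1, 2 and 3. It was 107 without salt library 1, 157 without salt library 3, 1261 without control library 1, 82 without control library 2 and 184 without control library 3.

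Csa4G286960, the gene with the second largest negative difference of those called in silicon-fed leaves too and above 0 in every library, stood at 0.419, 0.507 and 0.966 RPKM in salt plus silicon leaves, against 207 and 154 RPKM in silicon leaves. The change was -6.80 ± 0.67 (SE, limma adjusted p = 0.000572). It too passed the level filter through the silicon libraries alone and so had to stand lower with salt in this comparison. It was called with no filter as well, in this comparison and in the difference of the salt effects. Its values were the same in that fit, so these calls add no support. Salt leaves had 1.47, 1.05 and 1.04 RPKM and control leaves 9.75, 1.87 and 0.308 RPKM, which overlapped (limma adjusted p = 0.504). The difference of the salt effects was -6.14 ± 0.90 (SE, limma adjusted p = 0.0151), lost without salt plus silicon library 1 or silicon library 1. Csa6G486960 had the largest. It stood at 3.18, 1.10 and 0.619 RPKM in salt plus silicon leaves, against 80.6 and 151 RPKM in silicon leaves. Salt leaves had 29.8, 1.76 and 9.47 RPKM and control leaves 6.11, 0.822 and 0.406 RPKM. The salt effect was -5.52 ± 0.97 with silicon (SE, limma adjusted p = 0.00668, lost without silicon library 2) and did not pass without it (limma adjusted p = 0.183).

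The 2 largest positive differences chosen by the same rule were smaller in size, but the rule left 4 positive and 234 negative candidates. Among all 472 genes called higher in silicon-fed leaves, called for this term or not, the difference reached 9.66. Csa7G430820 stood at 29.3, 21.9 and 25.5 RPKM in salt plus silicon leaves, against 8.11 and 12.7 RPKM in silicon leaves. The change was 1.24 ± 0.26 (SE, limma adjusted p = 0.0143), lost without salt plus silicon library 1 or silicon library 1. Salt leaves had 9.77, 12.2 and 10.5 RPKM, against 17.6, 18.8 and 11.6 RPKM in control leaves (limma adjusted p = 0.178). Its salt plus silicon libraries were the highest of all 11. Csa1G039230 stood at 133, 117 and 87.7 RPKM in salt plus silicon leaves, against 41.04 and 50.8 RPKM in silicon leaves. The change was 1.26 ± 0.21 (SE, limma adjusted p = 0.00563), lost without silicon library 1. Salt leaves had 49.9, 64.4 and 58.6 RPKM, against 66.0, 78.7 and 64.3 RPKM in control leaves (limma adjusted p = 0.374). Again all salt plus silicon libraries lay above every other library.

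Some genes passed between near absence and clear presence. By a fixed rule of size, 73 tested genes were under 1 RPKM in all salt plus silicon libraries and at 10 RPKM or more in both silicon libraries, and 12 had the reverse pattern. The rule fixed both patterns, so no calls are counted among these genes. Of the 73, 32 were listed at 0 in all salt plus silicon libraries, while 22 were above 0 in all 5. Their median was 32.2 and 34.4 RPKM in the silicon libraries, and 4.36, 0.943 and 0.162 RPKM in control libraries 1, 2 and 3. In the salt libraries it was 0.215, 0 and 0 RPKM. All salt libraries were under 1 RPKM in 50 of the 73 genes and all control libraries in 14, and none of the 6 reached 10 RPKM in 53. Of all 16771 tested genes, 1272, 985 and 1523 were under 1 RPKM in salt libraries 1, 2 and 3. In control libraries 1, 2 and 3 these were 996, 1682 and 1525. For 10 RPKM no share over all tested genes was counted. Of the 12 genes with the reverse pattern, 8 were listed at 0 in both silicon libraries. Their median was 35.2, 23.9 and 31.5 RPKM in salt plus silicon libraries and 18.3, 24.4 and 12.6 RPKM in salt libraries, against 0.618, 0.186 and 0.119 RPKM in control libraries. A value listed at 0 can be a failed estimate, and no fold change is given for these genes.

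Genes called without each silicon-fed library in turn are those that rest least on a single library. The 352 that fell had a median of 1.71, 1.74 and 1.5 RPKM in salt plus silicon libraries, against 35.5 and 38.3 RPKM in silicon libraries. It was 2.09, 1.25 and 1.54 RPKM in salt libraries and 7.63, 3.54 and 2.06 RPKM in control libraries. The 55 that rose had a median of 67.7, 78.8 and 93.6 RPKM in salt plus silicon libraries, against 17.9 and 18.3 RPKM in silicon libraries. It was 52.3, 86.3 and 51.9 RPKM in salt libraries and 20.7, 20.3 and 17.3 RPKM in control libraries. Their median log2 change with salt alone was 1.74, and that of the 352 was -0.51.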

How the data were processed

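The authors deposited 1 RPKM value per gene and library in 11 tables. The libraries held poly(A) RNA without strand, per the labels' protocols, so reads of overlapping genes on opposite strands are counted together. The tools included TopHat2, per the submitters' processing notes. How reads were counted, and on which genome build, is not given in the sources used here. At most 1 value above 0 was identical between any 2 libraries. Values were transformed to log2(RPKM + 1), and limma 3.58.1 (R 4.3.3) was fitted to the group means of all libraries, with a trend of variance with level, 7 residual degrees of freedom and two-sided tests. The fit was tested on simulated data. Tables and plots were made with Python 3.11.15, pandas 2.3.3, numpy 2.4.6, scipy 1.17.1 and matplotlib 3.10.9. No counts were recovered, so no count test was run and no interval for counting error is given.

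The 12 named genes were the 2 largest changes in each direction that were 2-fold or more, called without each of the 5 libraries, without overlap and without a 0. To these came 2 in each direction for genes called by both salt comparisons (ranked by the smaller change) and for the difference of the salt effects, each above 0 in all 11 libraries, and the most abundant call in each direction. Gene lists by product name could not be run. The comparison, the rules and the alternatives were chosen with earlier results of these data known. The alternatives included a pseudocount of 0.1, no filter, a filter of 5 RPKM and a filter over all 11 libraries. With no filter, the 19574 genes above 0 in any silicon-fed library were tested. Others were robust moderation, a replicate block, quantile normalization, median-of-ratios scaling and the groups compared fitted alone. Each library was also left out in turn, and calls were counted without genes at 0 in a whole compared group.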

Additional observations from a re-analysis of the deposited data

Results flagged for a closer look

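The salt effect differed between silicon-fed and unfed leaves in 386 genes by the interaction term of the fit, which was the reason to list them here. Among the named genes the difference of the salt effects (silicon-fed minus unfed, log2 scale) was -7.39 ± 1.30 for Csa6G486960 (SE, limma adjusted p = 0.0242) and -6.14 for Csa4G286960. It was -5.25 ± 1.01 for Csa3G829270 (limma adjusted p = 0.0333), 1.74 ± 0.34 for Csa7G430820 (limma adjusted p = 0.0365) and 1.53 ± 0.28 for Csa1G039230 (limma adjusted p = 0.0303). With 1 of the 11 libraries left out, the call was lost in 8 fits for Csa6G486960, 8 for Csa3G829270, 7 for Csa7G430820, 7 for Csa1G039230 and 2 for Csa4G286960. Each of the 5 lost it without salt plus silicon library 1 and without silicon library 1. Csa6G486960, Csa3G829270 and Csa7G430820 also lost it with the smaller pseudocount, and Csa7G430820 with a replicate block. All of these genes except Csa3G829270 were chosen by this term. Csa4G286960 and Csa3G829270 passed the level filter through silicon libraries alone, and so had to stand lower with salt in silicon-fed leaves.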

How the results depend on the processing

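Of the named genes, 22 changes called in the main fit were followed, and none turned its sign under any alternative run. Changes that were not called, such as that of Csa4G286960 with salt alone, were not followed and may turn. Leaving out a salt or control library could not move the change between salt plus silicon and silicon leaves. The 1770 calls between salt plus silicon and silicon lay between 1506 and 2223 under the alternatives that kept all libraries, apart from 1210 with a replicate block, and between 532 and 1981 with 1 library left out. With the 5 libraries fitted alone 2005 were called, of which 350 higher and 1156 lower ones were also called in the fit of all libraries. The calls for salt against control fell to 211 with those 6 libraries fitted alone and lay between 463 and 1959 with 1 library left out. The interaction was called in 158 genes with the smaller pseudocount, in 201 with a replicate block, and in 57 to 1261 with 1 library left out. Genes shared in direction by both salt comparisons numbered 237 with a replicate block, 79 with the compared groups alone, and 105 to 407 with 1 library left out. The median change of tested genes was 0.15 after quantile normalization. The 12 genes at 10 RPKM or more in salt plus silicon and under 1 RPKM in silicon libraries became 17 to 37 with 1 library left out. Fewer libraries then had to meet the rule. The 22 values of named genes kept their call in 381 other fits and lost it in 54. Part of this tally was fixed in advance, since some genes were chosen for calls kept without each silicon-fed library. Whether replicate numbers pair the libraries could not be settled. Deviations from the group mean correlated at 0.0095 between salt plus silicon 1 and silicon 1 and at 0.0513 between the second libraries. With 2 silicon libraries the deviations mirror each other, so the unlike numbers gave -0.0095 and -0.0513. For salt and control, libraries of the same number correlated at 0.129, -0.220 and -0.173, and those of unlike numbers at -0.178 to 0.275. The cause of these movements was not tested. Only 2 silicon libraries and unknown depth limit the precision of every value here.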

Other observations

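Genes called in the same direction often had neighbouring IDs. Of the 1298 genes that fell with salt in silicon-fed leaves, 310 (23.9%) had a gene that also fell as the next or previous listed ID, as did 12.2% of all tested genes. Of the 472 that rose, 49 (10.4%) had such a neighbour that rose, as did 4.63% of tested genes. Falling genes formed 31 runs of 3 or more IDs listed in a row, the longest of 6, and rising genes had no run longer than 3. These shares are descriptions with no test, and IDs were used as strings, without coordinates. Calls were spread over the ID prefixes, with 6.31% of tested Csa7G genes and 9.01% of tested Csa6G genes falling and 2.42% of Csa4G and 3.05% of Csa3G genes rising, at the ends of the range over prefixes Csa1G to Csa7G.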
